A study of Mus musculus with 6 samples.

Results

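The aminoacyl-tRNA synthetases were followed in 4T1 cells, a mouse mammary carcinoma line, with and without the transfected methyltransferase-like protein METTL7A1. The members were 36 synthetase genes and 2 scaffold genes of the synthetases, taken by gene symbol, so 38 of the 48587 genes of the deposited count table. Symbols ending in 2 were taken as mitochondrial (16 genes) and the others as cytosolic (20 genes). The exception was Aimp2, which encodes a scaffold of the cytosolic enzymes and was described with Aimp1. All 38 were found under their listed symbol and all 38 passed the abundance filter of at least 1 cpm, a count scaled for library size, in 3 or more libraries.

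Synthetases join each amino acid to its own tRNAs and so supply both translation systems of the cell, the cytosolic ribosome and the mitochondrial ribosome. Most amino acids have separate nuclear genes for the cytosolic and the mitochondrial enzyme, whereas Gars and Kars each encode both forms, and Eprs carries the glutamyl and prolyl activities in a single chain. A part of the cytosolic enzymes sits in the multi-synthetase complex, held together by the scaffolds Aimp1, Aimp2 and Eef1e1. Many cytosolic synthetase genes are known targets of ATF4, the transcription factor of the amino acid response, which binds C/EBP-ATF response elements.

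Total RNA depleted of ribosomal RNA was read from 3 METTL7A1 and 3 mock libraries. METTL7A1 cells were 4T1 cells stably transfected with full-length Mettl7a1 cDNA in the vector pBICEP-CMV-2, mock cells carried the empty vector, and selection used 350 μg/ml G418. The sources do not say whether the transfectants were clones or pools. The triplicates of each group are called biological in the sources without further detail, and p values therefore measure the spread between these libraries. The libraries held 18386780 to 28459338 counts. Mettl7a1 had 342 to 422 cpm in METTL7A1 and 1.17 to 1.64 cpm in mock libraries, so each library followed its label. The ribosomal repeat gene AY036118 took 0.502% to 13.1% of the counts, the most in mock replicate 1. The summed level of 5 epithelial markers was 1449 to 1655 cpm in mock and 1433 to 1746 cpm in METTL7A1 libraries, a sum carried by Krt8, Krt18, Epcam and Cdh1. Krt14, the basal keratin among the 5, fell by 1.94 on the log2 scale (edgeR adjusted p = 7.54e-08). Markers of other cell types were summed over 4 fibroblast genes (15.8 to 18.7 cpm in mock, 23.7 to 27.2 cpm in METTL7A1), 4 leukocyte genes (5.24 to 7.30 and 14.1 to 16.5 cpm) and 2 endothelial genes (0.398 to 0.695 and 0.761 to 0.808 cpm), with Cd3e at 0 counts in all libraries. Pdgfra made up nearly all of the fibroblast sum and Cd68 and Csf1r that of the leukocyte sum, and these 3 rose by 0.47, 1.23 and 1.68 on the log2 scale, while the leukocyte gene Ptprc had 3 to 8 counts in every library. Their part in the results below was not tested. In bulk RNA, fewer cells of a type and less RNA per cell cannot be told apart.

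The first comparison asked how the cytosolic synthetase mRNAs differed between METTL7A1 and mock cells. In METTL7A1 cells 9 of the 20 rose, namely Nars, Cars, Sars, Aars, Lars, Mars, Yars, Iars and Tars, by 1.18 to 1.92 times. Farsa, Kars and Wars fell, and the other 8 did not pass the test (edgeR's quasi-likelihood test with p values adjusted over all 13166 genes tested by the Benjamini-Hochberg method, called under 0.05). Over all genes tested 21.1% were called higher, 21% lower and 42.1% in either direction, so a call in itself was common in this comparison. The median log2 fold change was 0.13 for the 20 cytosolic genes and -0.03 for all genes. None of the 38 members passed the thresholds of the study (adjusted p under 0.01 and a log2 fold change over 1.5 in either direction), which 2.48% of all genes did. The count was 0 with DESeq2 and limma voom as well.

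**Figure D1:**
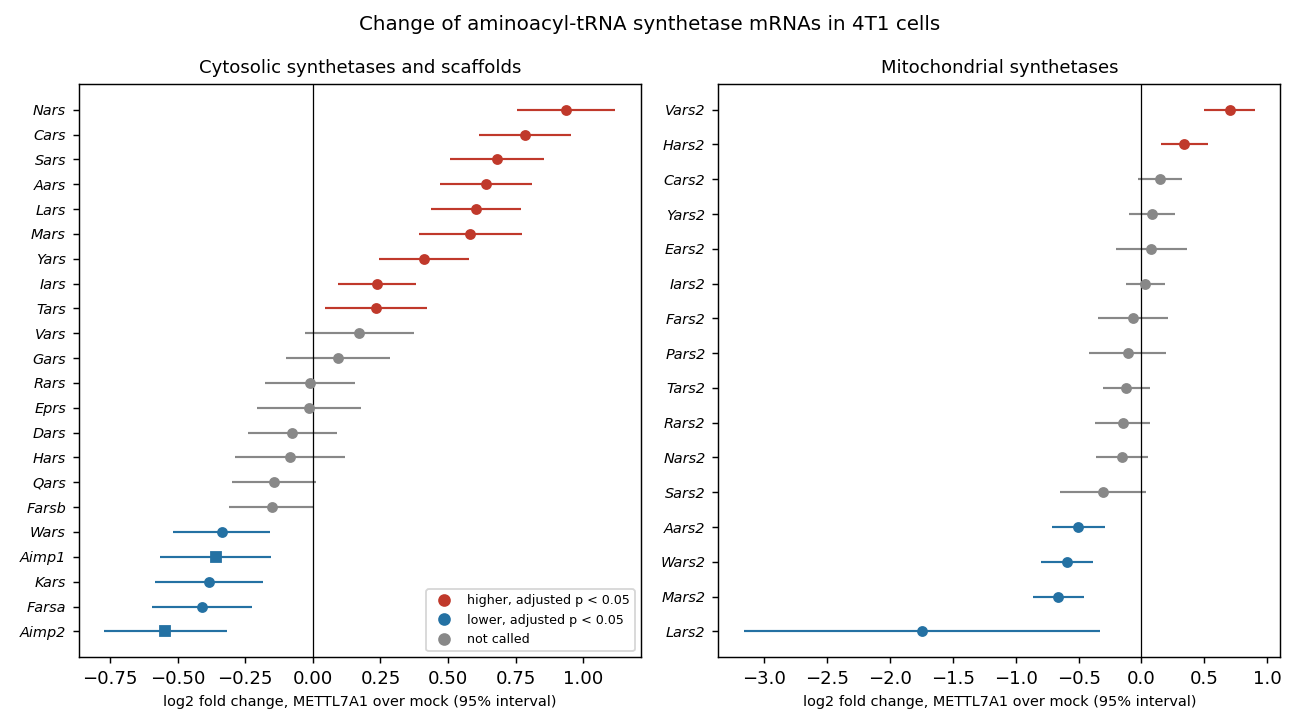
Log2 fold change of each gene, METTL7A1 over mock (points), with its 95% interval (lines); cytosolic synthetases and the 2 scaffolds (squares) are on the left and mitochondrial synthetases on the right, each panel with its own scale. The cytosolic genes run from 0.94 (Nars) to -0.41 (Farsa), and the interval of Lars2, from -3.16 to -0.33, is the widest.

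The largest rise was that of Nars, the asparaginyl enzyme (mm10 chromosome 18, 64499665 to 64516557). It had 136, 146 and 126 cpm in mock replicates 1 to 3 and 241, 276 and 265 cpm in METTL7A1 replicates 1 to 3. The METTL7A1 libraries all lay far above the mock libraries, and the log2 fold change was 0.94 with a standard error (SE) of 0.0828 (edgeR adjusted p = 9.44e-06). Cars, the cysteinyl enzyme (chromosome 7, 143557230 to 143600090), had 69.5, 69.7 and 65.2 cpm in mock and 116, 128 and 108 cpm in METTL7A1 libraries. Its groups were likewise separate, with a log2 fold change of 0.79 ± 0.0772 (SE, edgeR-based adjusted p = 2.06e-05). Sars, the seryl enzyme (chromosome 3, 108424865 to 108445198), which also charges the selenocysteine tRNA, had 104, 101 and 90.8 cpm in mock and 146, 166 and 162 cpm in METTL7A1 libraries. No METTL7A1 library reached down to the mock values, and the log2 fold change was 0.68 ± 0.0789 (SE, edgeR-based adjusted p = 6.09e-05).

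Aars, the alanyl enzyme (chromosome 8, 111033902 to 111057664), had 179, 181 and 157 cpm in mock and 263, 278 and 264 cpm in METTL7A1 libraries. The groups did not overlap, and the log2 fold change was 0.64 ± 0.0773 (SE, edgeR-based adjusted p = 8.07e-05). Aars shares 1326 exon bases with Exosc6 on the same strand, which had 0 counts in every library. The effect of this overlap on the Aars level was not tested. Lars, the leucyl enzyme that has also been described as a leucine sensor for mTORC1 (chromosome 18, 42202350 to 42262122), had 118, 118 and 109 cpm in mock and 170.2, 189 and 166 cpm in METTL7A1 libraries. Again every METTL7A1 library was above every mock library, with a log2 fold change of 0.60 ± 0.0757 (SE, edgeR-based adjusted p = 0.000104). Mars, the methionyl enzyme, which charges both the initiator and the elongator tRNA (chromosome 10, 127296221 to 127311786), had 143, 134 and 116 cpm in mock and 193, 206 and 188 cpm in METTL7A1 libraries. The groups were separate and the log2 fold change was 0.58 ± 0.0860 (SE, edgeR-based adjusted p = 0.000315). The Mars rise was not larger than that of its surroundings, as the 40 nearest expressed genes on chromosome 10 had a median log2 fold change of 0.53, and with this median taken off the log2 fold change was 0.05 (edgeR adjusted p = 0.682). Mars also shares 135 exon bases with Ddit3 on the opposite strand, which had at most 546 counts in any library against at least 2607 of Mars.

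The smaller rises were those of Yars, Iars and Tars, the tyrosyl, isoleucyl and threonyl enzymes. Yars had a log2 fold change of 0.41 (edgeR adjusted p = 0.00128), Iars of 0.24 (0.0136) and Tars of 0.23 (0.0469), and in all 3 the METTL7A1 libraries lay above the mock libraries. The Tars call was lost without METTL7A1 replicate 2 (adjusted p = 0.163), METTL7A1 replicate 3 (0.0711), mock replicate 1 (0.0846) or mock replicate 3 (0.101), and the Iars call without METTL7A1 replicate 2 (0.0634). The other 7 rises kept their call when any library was left out. After the median of the chromosomal neighbours was taken off, 8 of the 9 rises kept their call, Mars being the exception.

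**Figure D2:**
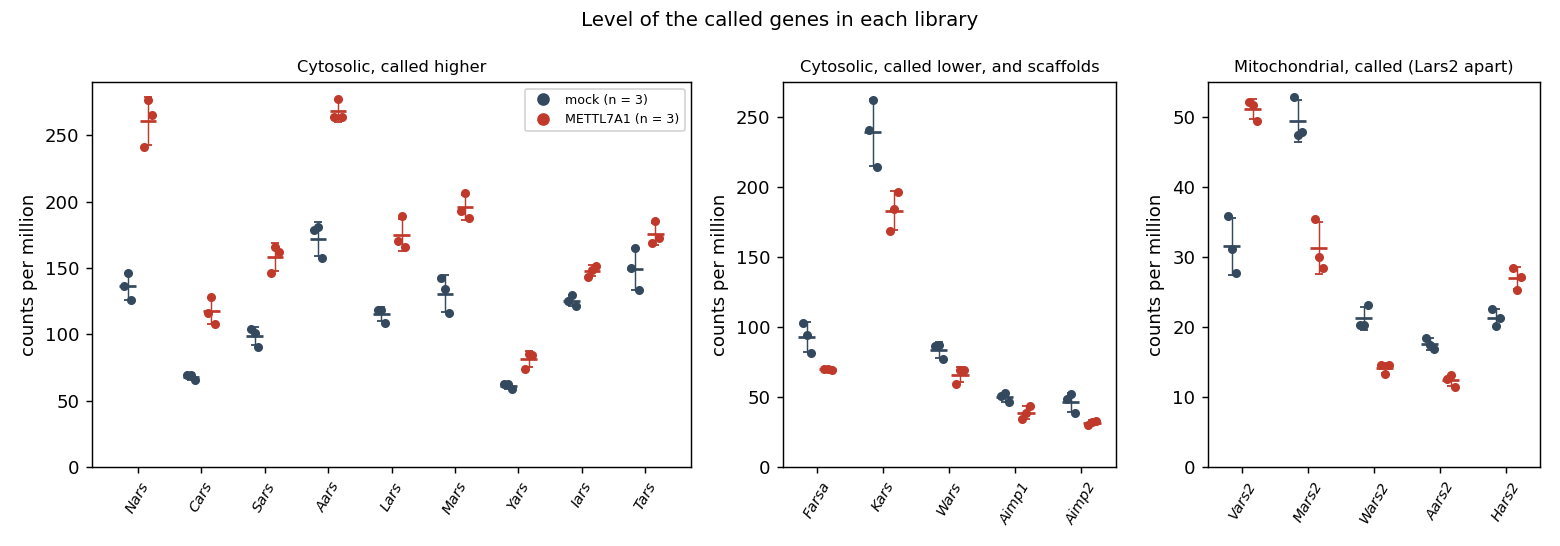
Level in cpm of the called genes in each of the 3 mock and 3 METTL7A1 libraries (points), with the group mean (bar) and SD (whiskers); Lars2 is left out because of its scale. In the left panel all METTL7A1 libraries lie above the mock libraries, with Nars and Aars the highest, and in the middle panel they all lie below.

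Among the 3 cytosolic genes that fell, Farsa encodes the catalytic alpha subunit of the phenylalanyl enzyme (chromosome 8, 84856989 to 84869257) and had a log2 fold change of -0.41 ± 0.0848 (SE, edgeR-based adjusted p = 0.00271). Farsb, the gene of the beta subunit of the same enzyme, had -0.15 (95% interval -0.31 to 0.00418) and was not called. Wars, the tryptophanyl enzyme and an interferon-inducible gene, had a log2 fold change of -0.34 (edgeR adjusted p = 0.00683). Kars, which encodes the lysyl enzyme of both compartments (chromosome 8, 111993443 to 112011323), had 241, 262 and 215 cpm in mock and 169, 185 and 196 cpm in METTL7A1 libraries. The groups were separate, with a log2 fold change of -0.38 ± 0.0906 (SE, edgeR-based adjusted p = 0.00579). Kars lies downstream of Aars on the same chromosome, where Aars rose. All 3 falls lay among neighbours that were also lower on median (-0.21 at Farsa, -0.16 at Kars and -0.27 at Wars), and none of the 3 was called once this median was taken off (edgeR adjusted p = 0.0931, 0.0822 and 0.574).

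Of the 8 cytosolic genes that did not pass the test, Gars, the second gene that serves both compartments, had 175, 193 and 162 cpm in mock and 171, 200.1 and 193 cpm in METTL7A1 libraries. These ranges overlapped and the log2 fold change was 0.09 (95% interval -0.10 to 0.28). The log2 fold changes of the other 7 were 0.17 (Vars), -0.01 (Rars), -0.02 (Eprs), -0.08 (Dars), -0.09 (Hars), -0.14 (Qars) and -0.15 (Farsb). Over all 8 the 95% intervals lay within -0.31 and 0.37. Vars had all METTL7A1 libraries above and Qars all below the mock libraries, so that 10 cytosolic genes were separated upward and 4 downward, against 25.9% and 25.6% of all genes. Hars was called lower only with the neighbours taken off (log2 fold change -0.42, edgeR adjusted p = 0.00569), as its neighbours on chromosome 18 had a median of 0.33.

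Position in the multi-synthetase complex and catalytic class were then compared. Of the 8 enzymes of the complex (Dars, Eprs, Iars, Kars, Lars, Mars, Qars and Rars) 3 rose and 1 fell, with a median log2 fold change of -0.01. Of the 12 outside the complex 6 rose and 2 fell, with a median of 0.20. Among the 10 class I enzymes 5 rose and 1 fell, and among the 10 class II enzymes, which have a different catalytic fold, 4 rose and 2 fell. Eprs, which was not called, was counted in class I only, although its prolyl activity belongs to class II. With Gars and Kars left out, 9 of 18 cytosolic genes were higher and 2 lower. Over all genes 21.1% were called higher, 21% lower and 42.1% in either direction. The differences between these subsets were not tested.

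Both scaffolds fell. Aimp1, the p43 subunit and precursor of a secreted cytokine (chromosome 3, 132660499 to 132683884), had 50.5, 52.7 and 46.5 cpm in mock and 34.2, 38.6 and 43.6 cpm in METTL7A1 libraries. All METTL7A1 libraries lay below the mock libraries, with a log2 fold change of -0.36 ± 0.0937 (SE, edgeR-based adjusted p = 0.00991). Aimp2, the p38 core scaffold of the complex (chromosome 5, 143902704 to 143909847), had 48.3, 51.9 and 38.96 cpm in mock and 29.9, 32.4 and 32.9 cpm in METTL7A1 libraries. Its groups were separate too, with a log2 fold change of -0.55 ± 0.103 (SE, edgeR-based adjusted p = 0.00154). Neither call remained with the median of the neighbours taken off (log2 fold changes of -0.20 and -0.24, edgeR adjusted p = 0.127 and 0.0974). Aimp2 shares 974 exon bases with Eif2ak1 on the opposite strand, which had at most 832 counts in a library against at least 554 of Aimp2.

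The promoters of the members were searched for the core of the C/EBP-ATF response element. The core TGATGNAA was searched on both strands from 250 bases before to 50 bases after the gene start in RefSeq windows (GRCm38.p6), which were at hand for 29 of the 38 members. It occurred in 5 of 13 cytosolic genes (Aars, Gars, Iars, Tars and Yars), in 0 of 14 mitochondrial genes and in 0 of 2 scaffold genes, against 4.51% of 27025 genes with a window. Of the 6 genes with a window that rose, Aars, Iars, Tars and Yars held it, while Mars and Sars did not. Of the 7 other cytosolic genes with a window only Gars did. The calls of Iars and Tars, the smallest rises, were lost when some single libraries were left out. A link between the core and the rise was not tested. Cars, Lars and Nars, which also rose, had no window. The stretch around the match is shown for Iars, Tars and Yars, which rose, and for Gars, which was not called, each given 5′ to 3′ on the strand of its gene with the match in capitals.
Iars (chr13:49682126-49682155, plus strand): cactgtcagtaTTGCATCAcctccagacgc
Tars (chr15:11399655-11399684, minus strand): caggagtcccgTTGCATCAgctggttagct
Yars (chr4:129189895-129189924, plus strand): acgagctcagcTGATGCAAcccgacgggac
Gars (chr6:55037960-55037989, plus strand): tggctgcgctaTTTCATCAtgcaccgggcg

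With the first base of the gene in RefSeq counted as 0, the matches shown began at 7 in Iars, -15 in Tars, 3 in Yars and -30 in Gars. The match read along the gene in Yars and on the opposite strand in the others. These matches describe letters in the window and no binding was measured.

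The second comparison asked whether the mitochondrial synthetases moved in the same way. Of the 16 genes 2 rose (Vars2 and Hars2), 4 fell (Mars2, Wars2, Aars2 and Lars2) and 10 did not pass the test. These 6 calls of 16 lay near the share over all genes (21.1% higher, 21% lower and 42.1% in either direction). The median log2 fold change was -0.11. The METTL7A1 libraries lay entirely above mock in 3 genes and entirely below in 3, against 25.9% and 25.6% of all genes, and overlapped in 10.

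Vars2, the mitochondrial valyl enzyme (chromosome 17, 35655634 to 35667592), had 35.8, 31.1 and 27.7 cpm in mock and 52.0, 51.7 and 49.4 cpm in METTL7A1 libraries. The groups were separate, with a log2 fold change of 0.70 ± 0.0919 (SE, edgeR-based adjusted p = 0.000145). This rise was of the size seen in the upper cytosolic genes, and it kept its call with the neighbours taken off (log2 fold change 0.45, edgeR adjusted p = 0.00334). Hars2, the histidyl enzyme (chromosome 18, 36783008 to 36792562), had 22.6, 20.1 and 21.3 cpm in mock and 28.5, 25.3 and 27.1 cpm in METTL7A1 libraries. All METTL7A1 libraries were above mock, with a log2 fold change of 0.34 ± 0.0851 (SE, edgeR-based adjusted p = 0.00805). The neighbours of Hars2 had a median of 0.32, and less this median the log2 fold change was 0.02 (edgeR adjusted p = 0.889). Hars and Hars2 lie head to head and share 195 exon bases on opposite strands.

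Mars2, the methionyl enzyme of mitochondria (chromosome 1, 55237177 to 55248470), had 52.8, 47.3 and 47.9 cpm in mock and 35.4, 29.96 and 28.4 cpm in METTL7A1 libraries. Every METTL7A1 library was below every mock library, with a log2 fold change of -0.66 ± 0.0920 (SE, edgeR-based adjusted p = 0.000214). Wars2, the tryptophanyl enzyme (chromosome 3, 99141068 to 99220203), had 20.3, 20.3 and 23.1 cpm in mock and 14.5, 13.2 and 14.6 cpm in METTL7A1 libraries. Its groups were separate, with a log2 fold change of -0.59 ± 0.0945 (SE, edgeR-based adjusted p = 0.000524). Aars2, the alanyl enzyme (chromosome 17, 45506841 to 45520842), had 18.5, 17.4 and 16.8 cpm in mock and 12.6, 13.1 and 11.5 cpm in METTL7A1 libraries. The log2 fold change was -0.50 ± 0.0966 (SE, edgeR-based adjusted p = 0.00170), again without overlap. All 3 falls kept their call when any library was left out and when the median of the neighbours was taken off.

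The 10 mitochondrial genes that were not called had log2 fold changes of -0.31 to 0.15. From the highest to the lowest these were Cars2 (0.15), Yars2 (0.08), Ears2 (0.08), Iars2 (0.03), Fars2 (-0.07), Pars2 (-0.11), Tars2 (-0.12), Rars2 (-0.15), Nars2 (-0.15) and Sars2 (-0.31). Their 95% intervals lay within -0.65 and 0.36, and that of Sars2, at 4.74 to 7.85 cpm the gene with the widest interval of the 10, was -0.65 to 0.04. Cars2 alone among them had all METTL7A1 libraries above mock. Iars2 shares 2034 exon bases with Rab3gap2 and Ears2 shares 89 with Ubfd1, each on the opposite strand.

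Lars2, the mitochondrial leucyl enzyme (chromosome 9, 123366940 to 123462664), stood apart from all other members. It had 1555, 538 and 139 cpm in mock replicates 1 to 3 and 138, 159 and 368 cpm in METTL7A1 replicates 1 to 3. The groups overlapped, as mock replicate 3 lay at the level of METTL7A1 replicate 1, and the log2 fold change of -1.75 had an SE of 0.645 (edgeR adjusted p = 0.0483). The call was lost without mock replicate 1 (log2 fold change -0.59, adjusted p = 0.426), METTL7A1 replicate 1 (-1.48, 0.122) or METTL7A1 replicate 2 (-1.54, 0.155). The share of AY036118, a gene within the ribosomal RNA repeat, was 13.1%, 5.02% and 0.966% of counts in mock and 0.502%, 2.57% and 4.53% in METTL7A1 libraries, and it ordered the 6 libraries in the same way as the Lars2 level. With the abundance of AY036118 as a covariate centred within groups the log2 fold change was -1.26 (edgeR adjusted p = 0.00113). Centring leaves any difference in AY036118 between the groups in this value, so the fit does not adjust for such a difference. The transcripts of Lars2 shared 0 stretches of 31 bases with those of AY036118, Gm42418, Gm26917, mt-Rnr1 and mt-Rnr2, on either strand. The whole ribosomal RNA repeat was not compared, so this count cannot show whether ribosomal reads were counted in Lars2. The part of the ribosomal reads in the Lars2 level was not tested further. The other 37 members varied far less between replicates, with a median coefficient of variation of 6.58% in METTL7A1 and 7.55% in mock libraries and a maximum of 17.0% and 14.4%.

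**Figure D3:**
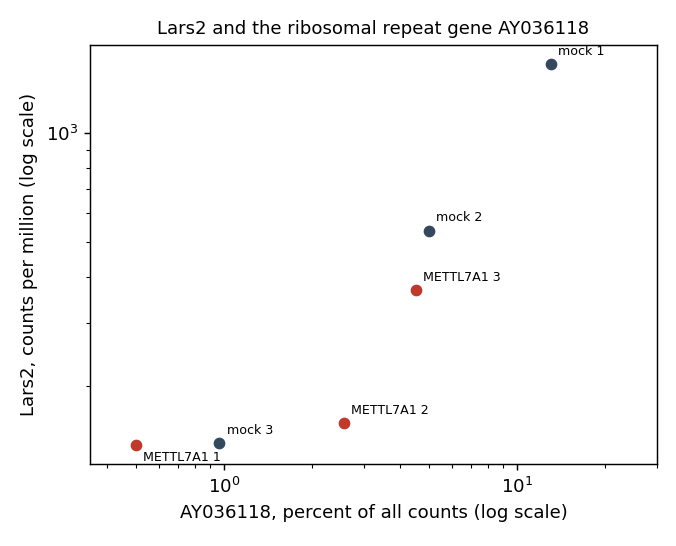
Level of Lars2 in cpm (vertical, log scale) against the share of AY036118 in all counts (horizontal, log scale) for each of the 6 libraries. Mock replicate 1 has the most of both (1555 cpm and 13.1%), METTL7A1 replicate 1 the least, and the 2 groups are intermixed.

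Levels of different genes were compared per exon length, as counts per kilobase of exon on TMM-scaled library sizes (RPKM). In mock cells the cytosolic genes ranged from 21.1 RPKM (Yars) to 115 RPKM (Vars), and the mitochondrial genes other than Lars2 from 2.59 RPKM (Pars2) to 14.9 RPKM (Tars2), so that these classes did not overlap. They did not overlap in METTL7A1 cells either, where the lowest cytosolic mean was 23.0 RPKM (Wars) and the highest mitochondrial mean other than Lars2 was 14.98 RPKM (Yars2). This separation depended on the exon length used. In cpm the mock mean of Iars2 (97.2) was above that of Yars (61.3). The order among the cytosolic genes of mock cells began with Vars (115 ± 12.8 RPKM, SD, n = 3), Kars (107 ± 10.7) and Eprs (101 ± 8.61), which overlapped each other. Of the 19 steps between neighbours in this order only 4 were larger than the spread of libraries, those from Eprs to Rars, Qars to Tars, Farsb to Hars and Sars to Cars. The mitochondrial order began with Lars2 (192 ± 188 RPKM), Tars2 (14.9 ± 1.19), Iars2 (14.6 ± 0.736) and Yars2 (14.1 ± 0.408), and 4 of its 15 steps were larger than the spread. The 9 genes that rose had a median of 29.9 RPKM in mock cells and 45.4 RPKM in METTL7A1 cells, and Nars, at 99.0 RPKM, was the highest of them.

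**Figure D4:**
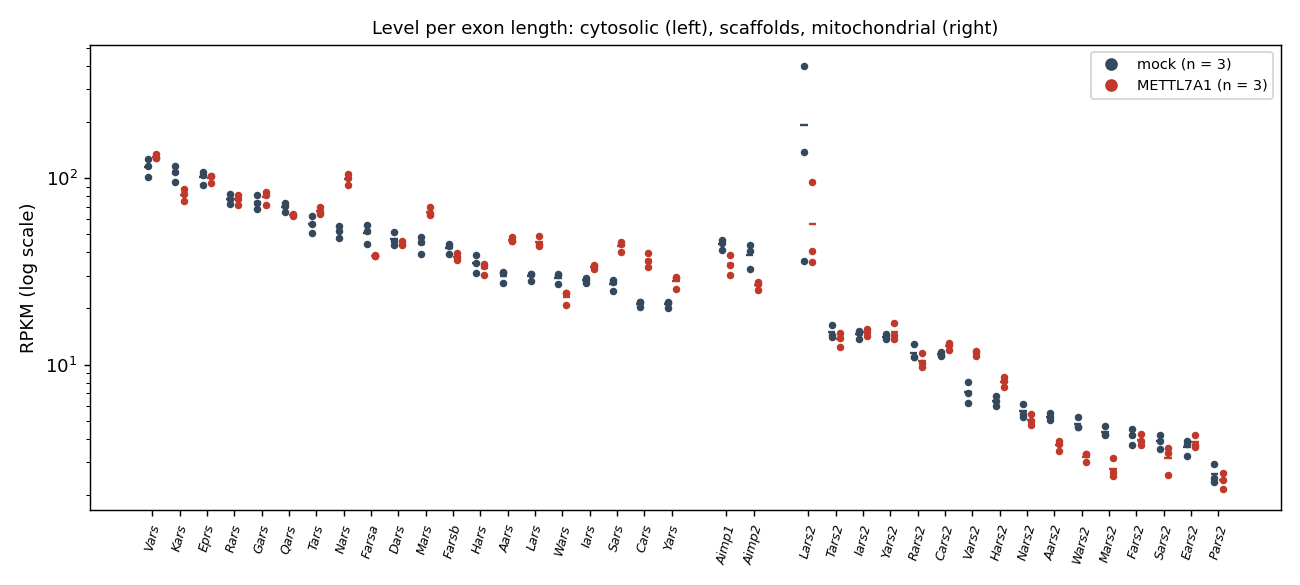
Level of each gene in RPKM (log scale) in mock and METTL7A1 libraries (points, n = 3 each, with the group mean as a bar), ordered within each class by the mock mean. Apart from Lars2, all mitochondrial genes lie below all cytosolic genes and scaffolds.

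Summed over the 20 cytosolic genes the level was 1172 ± 48.9 RPKM in METTL7A1 and 1059 ± 80.7 RPKM in mock libraries (SD, n = 3 each). The sum of the 16 mitochondrial genes was 171 ± 29.4 and 306 ± 190 RPKM, but Lars2 made up 22.8% to 77.4% of it. Without Lars2 the 15 other mitochondrial genes summed to 114 ± 5.29 RPKM in METTL7A1 and 114 ± 2.39 RPKM in mock libraries. The ratio of the cytosolic to this mitochondrial sum was 10.3 ± 0.849 in METTL7A1 and 9.26 ± 0.746 in mock libraries, and the groups overlapped.

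The classes were compared directly by the difference of their medians. The median of the cytosolic genes exceeded that of the mitochondrial genes by 0.25 on the log2 scale. Within each library, with levels taken relative to the mock mean of each gene, this difference was 0.08, 0.33 and 0.32 in METTL7A1 replicates 1 to 3 and -0.02, 0.10 and -0.08 in mock replicates 1 to 3. METTL7A1 replicate 1 lay below mock replicate 2, so the groups overlapped. With the neighbours taken off the difference was 0.11. Omitting single libraries gave 0.14 to 0.34, the lowest without mock replicate 3, and the mitochondrial median moved from -0.114 to -0.0417 without mock replicate 1, -0.052 without METTL7A1 replicate 3 and -0.0679 without mock replicate 3. The cytosolic median of 0.132 was 0.0704 without mock replicate 3.

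Each cytosolic gene was then set against its mitochondrial counterpart within the same library, which removes the scaling between libraries. In the 17 pairs the ratio of METTL7A1 libraries lay wholly above mock in 6, wholly below in 2 and overlapped in 9, with a median difference of 0.24 on the log2 scale. For single genes the shares over all genes were 25.9% above and 25.6% below, and no share was taken over ratios of other genes. With 3 libraries against 3 the exact permutation test (two-sided) cannot give less than p = 0.1, which all 8 separated pairs reached, and adjusted over the 17 pairs this was 0.2125, so no pair passed. The pairs are therefore given by their size and their libraries.

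The ratio of Mars to Mars2 differed most among the separated pairs. Its log2 value was 1.43, 1.499 and 1.27 in mock and 2.44, 2.78 and 2.72 in METTL7A1 libraries, a difference of 1.25. Aars to Aars2 was 3.27, 3.37 and 3.22 in mock and 4.38, 4.40 and 4.51 in METTL7A1 libraries, a difference of 1.15. In both pairs the cytosolic gene had risen and the mitochondrial gene had fallen. The rise of Mars (0.58) was close to the median of its chromosomal neighbours (0.53), which the ratio does not take off. Nars to Nars2 differed by 1.08 (2.55 ± 0.212 in mock, 3.63 ± 0.200 in METTL7A1, SD, n = 3 each), Sars to Sars2 by 0.98 (3.76 ± 0.222 and 4.74 ± 0.314) and Cars to Cars2 by 0.64 (1.65 ± 0.0384 and 2.29 ± 0.0689). In these 3 pairs the cytosolic gene had risen and the mitochondrial gene was not called. Iars to Iars2 differed by 0.21.

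The opposite held for Vars and Hars. Vars to Vars2 was 3.88, 3.95 and 3.93 in mock and 3.34, 3.42 and 3.42 in METTL7A1 libraries, a difference of -0.52, and here the mitochondrial gene was the one that rose. Hars to Hars2 differed by -0.42 (1.70 ± 0.218 in mock, 1.27 ± 0.181 in METTL7A1, SD, n = 3 each). Wars and Wars2 had both fallen and their ratio overlapped, with a difference of 0.24. Lars to Lars2 was -3.71, -2.18 and -0.35 in mock and 0.31, 0.25 and -1.15 in METTL7A1 libraries, and the overlap lay in the Lars2 values. The other 7 overlapping pairs were those of Tars, Yars, Rars, Farsa, Farsb and Eprs, the last set against both Ears2 and Pars2, and they differed by -0.34 to 0.36.

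**Figure D5:**
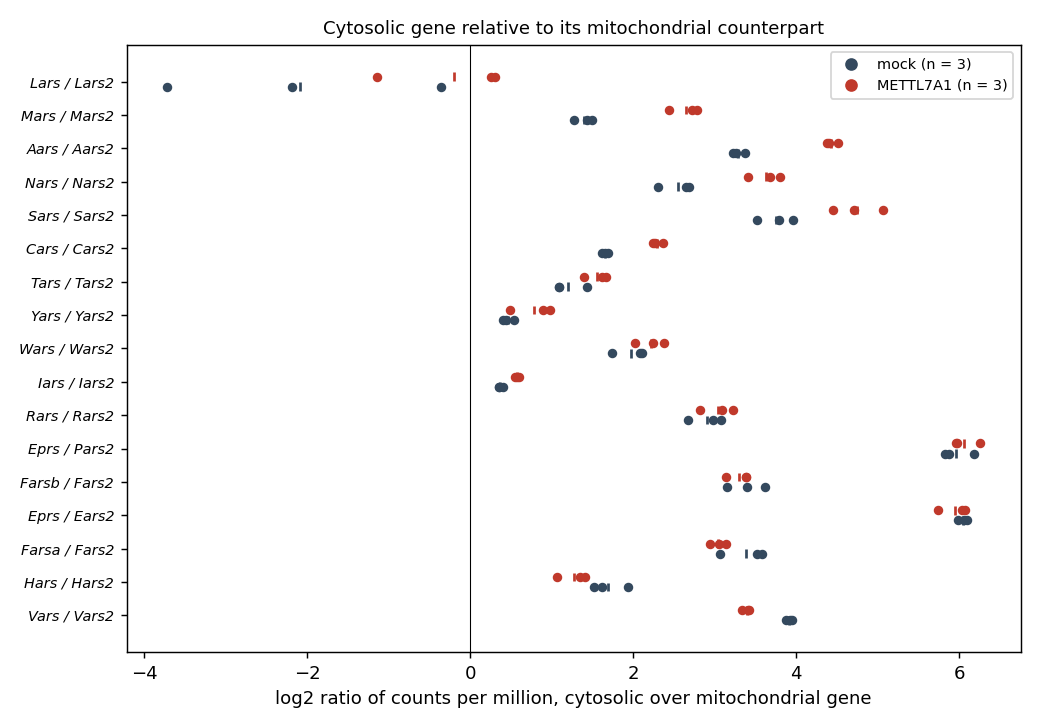
Log2 ratio of the cytosolic gene to its mitochondrial counterpart in each library (points, with the group mean as a bar; mock and METTL7A1, n = 3 each), for the 17 pairs ordered by the difference between the groups. The METTL7A1 libraries lie wholly to the right of mock in 6 pairs and wholly to the left in Hars / Hars2 and Vars / Vars2.

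Other genes of the pathway were read from the same fit. Of 17 amino acid response genes 15 were higher and 0 lower, against 21.1% and 21% of all genes, with a median log2 fold change of 0.67. Chac1, which degrades glutathione, rose by 3.59 on the log2 scale (SE 0.170, edgeR adjusted p = 1.12e-07), Slc7a11, the cystine transporter, by 3.11 (1.31e-07), Ddit3, the stress factor CHOP, by 2.40 (5.86e-07) and Asns, asparagine synthetase, by 1.46 (1.33e-06). Atf4 itself, added after its value was seen, rose by 0.83 (2.34e-05). All 9 cytosolic rises, of 0.23 to 0.94, were smaller than those of the first 4 genes named, which had the smallest adjusted p of this list. The median of the list and the rise of Atf4 lay within the range of the 9.

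Of 15 genes for tRNA charging, editing, repair and export 14 could be tested, of which 3 rose and 3 fell (2 and 1 with the median of the neighbours taken off). The 3 rises and 3 falls lay near the share over all genes (21.1% higher and 21% lower). Xpot, the tRNA exporter, rose by 0.42 on the log2 scale (edgeR adjusted p = 0.00101) and Gatb by 0.28 (0.0471). Gatb and Qrsl1 encode subunits of the mitochondrial amidotransferase that makes glutaminyl-tRNA in place of a mitochondrial glutaminyl synthetase, and Qrsl1 fell by 0.86 on the log2 scale (6.11e-05). These subunits went in opposite directions, and the remaining subunit, Gatc, had a log2 fold change of -0.05 and was not called. Dtd2, which removes wrongly charged amino acids from tRNAs, fell by 0.57 (0.00206), and Trnt1, which adds the CCA end of tRNAs, fell by 0.24 (0.0361). The chromosomal neighbours had a median log2 fold change of 0.43 at Xpot and -0.51 at Dtd2, close to the changes of these genes. It was -0.50 at Qrsl1, -0.05 at Gatb and -0.02 at Trnt1. Eef1e1, the remaining scaffold of the complex, had -0.21 (95% interval -0.43 to 0.02) and was not called. Gatb, Trnt1, Gatc and Eef1e1 were named after their values were seen.

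Factors that work downstream of the charged tRNA were counted last. Of 9 mitochondrial translation factors tested 0 rose and 4 fell, against 21.1% and 21% of all genes, with a median log2 fold change of -0.31. DESeq2 and limma voom gave the same counts, as did an unadjusted p under 0.05 in edgeR. Mtrf1, a release factor homologue, fell by 1.15 on the log2 scale (edgeR adjusted p = 0.000333), Mtif3, an initiation factor, by 0.72 (0.000280), Gfm1, the elongation factor for translocation, by 0.51 (0.000214) and Tufm, the factor that delivers charged tRNAs to the mitochondrial ribosome, by 0.49 (0.00354). None of the 5 cytosolic elongation factor genes was called by edgeR, and DESeq2 and limma voom each called 1 lower. Eef1a1, which delivers charged tRNAs in the cytosol, had a log2 fold change of -0.33 (95% interval -0.62 to -0.04, edgeR adjusted p = 0.0641) and was the only one of the 5 with an unadjusted p under 0.05 (0.0286).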

How the data were processed

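The authors deposited raw counts per gene, together with the exon length of each gene. Per the sources, read ends were trimmed with BBDuk, read pairs were aligned to mm10 with STAR 2.5.3a, and reads were assigned to Ensembl genes with featureCounts in R 3.5.1. The treatment of strand and of multi-mapping reads is not given in the sources used here. In every library AY036118 exceeded Gm42418, the gene around it on the other strand, which requires counting by strand. All count columns belonged to the 6 libraries, and groups and replicate numbers came from the sample titles.

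The counts were fitted by edgeR 4.0.16 (R 4.3.3). A gene needed 1 cpm or more in 3 or more libraries (13166 genes), libraries were scaled by TMM, and METTL7A1 was compared with mock by glmQLFit and glmQLFTest without covariates. P values were adjusted over all 13166 genes (Benjamini-Hochberg), and a gene was called at an adjusted p under 0.05. The SE was the log2 fold change divided by the square root of F. Levels are cpm on TMM-scaled library sizes, and RPKM used the deposited exon length. The neighbour median was that of the 40 nearest genes on the chromosome with an average log2 cpm over 2. In counts simulated for this comparison (13015 genes), 90.8% of genes changed by 1 on the log2 scale and 54.1% of those changed by 0.5 were called. Only 98 genes of each size were changed there, whereas 42.1% of genes were called in the real data. The adjustment of p values was thus stricter in the simulation, and these shares do not give the recovery in the real data.

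The members, lists and alternatives were chosen with earlier results of these data known. Values in every library are given for the 6 cytosolic and 6 mitochondrial genes with the smallest adjusted p, for Aimp1, Aimp2, Gars and Kars and for their pairs, and up to 4 genes with the smallest adjusted p are named from each other list. The alternatives were upper quartile or RLE scaling, omission of the abundance filter, at least 10 counts in every library, a replicate block, an AY036118 covariate, the neighbour offset, DESeq2 1.42.0, limma 3.58.1 voom, each library left out in turn, and Gars and Kars left out. Leaving out Lars2 was added after seeing the data. Promoter sequences are those of RefSeq (GRCm38.p6), in 300-base windows matched by symbol. Of the other pathway genes 1, and the promoter stretches of 1 gene, are not reported here. Figures were drawn with matplotlib 3.10.9.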

Additional observations from a re-analysis of the deposited data

How the results depend on the processing

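Each of the 38 genes was refitted under 15 alternatives, and 546 of the 570 values kept their side of the threshold, 21 lost a call and 3 gained one. No called value changed sign, and 16 values that were not called did, in Eprs, Rars, Vars, Fars2, Iars2, Pars2 and Yars2. Of the 20 called genes 10 were called under every alternative, 17 whenever a library was left out and 12 with the neighbour offset. The offset had the largest effect on the classes: it moved the difference of the class medians from 0.25 to 0.11 and left 8 cytosolic genes higher and 1 lower (Hars), and 1 mitochondrial gene higher and 3 lower. When a library was left out the mitochondrial median ranged from -0.171 to -0.0417. The log2 ratio of the summed mitochondrial level was -0.84 with Lars2 and -0.000211 without it. Lars2 also lost its call with RLE scaling (adjusted p = 0.0534), upper quartile scaling (0.0592), the neighbour offset (0.0708), limma voom (0.127) and DESeq2 (0.135); the cause was not tested. Farsb gained a call with the AY036118 covariate (adjusted p = 0.0399) and without mock replicate 3 (0.0434). Samples with the same replicate number did not deviate together (correlations of -0.15, 0.20 and -0.37 for replicates 1 to 3), so the numbers were not taken to pair them. With a replicate block 12 cytosolic and 5 mitochondrial genes were called, against 12 and 6 without it, and the lost call was that of Lars2 (log2 fold change -1.39, adjusted p = 0.204). Apart from Lars2, the widest interval was that of Sars2, a gene with as few as 117 counts in a library.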
